A study of Mus musculus with 12 samples.

Results

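The 47 genes described here encode the machinery that copies DNA and the machinery that drives the cell cycle, and their transcripts were measured in whole mouse liver. They were chosen by symbol, from a list of replication and cell cycle genes, and all 47 matched a mouse gene identifier in the deposited tables, out of 22381 genes with values. By role they comprise 29 licensing and S phase genes, 11 mitotic genes, and 7 regulators of G1 and of the step from G1 into S phase. A value of at least 3.32 (log2 of 10) in at least 3 libraries was reached by 43 of the 47, and only these were tested unless stated otherwise. Cdc6, Orc1, Ccnb1 and Bub1 stayed below that level.

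Female C57BL/6 mice, an inbred laboratory strain, were kept on a high fat, high sugar diet over 14 weeks, which is used to model steatohepatitis. The 4 groups of livers were sequenced as 3 libraries each, 12 in all: HFHS (the diet with no treatment), HFHS_Curcumin, HFHS_Calcitriol, and CNT. Curcumin, a plant polyphenol, or calcitriol, the active hormone form of vitamin D, was packed into liposomes and injected intravenously in weeks 12 and 13. Whole livers were taken 2 weeks after the earlier injection. The labels give CNT the same diet text as the other groups, so how it differs from HFHS is not stated and it is named by its title. No group with empty liposomes was analysed here, so a drug and its carrier and injection cannot be told apart. Whether the 3 libraries of each group are separate animals is not stated, so p-values measure only the spread between these libraries. In whole tissue, fewer cells of a type and less RNA per cell cannot be told apart.

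Before a cell copies its DNA, the origin recognition complex, CDC6 and CDT1 load the MCM2-7 helicase onto chromatin, a step called licensing. In S phase CDC45 and the GINS complex switch the helicase on, polymerases and ligases follow the fork, and ribonucleotide reductase and other enzymes supply nucleotides. These genes are textbook targets of the E2F transcription factors. Genes for the later G2 and mitotic steps (cyclin A2, cyclin B, CDK1, topoisomerase II alpha) are textbook targets of the DREAM and MuvB complexes, which bind DNA at the CHR element. Most hepatocytes of an adult liver are out of the cycle, and they can re-enter it after injury or loss of tissue.

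Because the members fall into these 2 classes, the promoters of 5 members whose values are described below are shown, with the short letters commonly written for the E2F or the CHR site in capitals. Each sequence is from RefSeq (GRCm38.p6), read 5′ to 3′ on the strand of the gene, and ends at the base before the annotated start, except that 26 bases nearest the start are left out for Cdk1. Those 26 bases hold another CHR match of Cdk1, 15 bases before the start. The capitals in Mcm5 (chr8:75109309-75109508, plus strand) and Mcm6 (chr1:128359706-128359905, minus strand) mark E2F letters, with matches on opposite strands that overlap. The capitals in Cdk1 (chr10:69352939-69353112), Mki67 (chr7:135716380-135716579) and Top2a (chr11:99024190-99024389), all on the minus strand, mark CHR letters on either strand. The E2F letters that Cdk1 also holds are left in lower case.
Mcm5: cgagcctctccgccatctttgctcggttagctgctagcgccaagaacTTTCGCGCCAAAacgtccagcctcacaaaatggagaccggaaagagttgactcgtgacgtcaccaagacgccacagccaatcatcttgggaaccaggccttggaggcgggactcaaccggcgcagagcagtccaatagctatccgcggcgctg
Mcm6: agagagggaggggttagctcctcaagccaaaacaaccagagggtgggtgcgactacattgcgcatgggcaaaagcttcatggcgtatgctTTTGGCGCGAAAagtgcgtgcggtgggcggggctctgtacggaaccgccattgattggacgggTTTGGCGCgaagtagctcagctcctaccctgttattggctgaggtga
Cdk1: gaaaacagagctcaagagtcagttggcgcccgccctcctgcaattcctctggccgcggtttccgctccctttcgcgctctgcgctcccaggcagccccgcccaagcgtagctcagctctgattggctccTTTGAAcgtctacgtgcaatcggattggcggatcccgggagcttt
Mki67: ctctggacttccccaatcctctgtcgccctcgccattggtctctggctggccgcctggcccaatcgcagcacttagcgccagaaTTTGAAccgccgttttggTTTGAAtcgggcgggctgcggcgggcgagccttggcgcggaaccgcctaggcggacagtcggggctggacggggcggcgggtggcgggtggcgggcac
Top2a: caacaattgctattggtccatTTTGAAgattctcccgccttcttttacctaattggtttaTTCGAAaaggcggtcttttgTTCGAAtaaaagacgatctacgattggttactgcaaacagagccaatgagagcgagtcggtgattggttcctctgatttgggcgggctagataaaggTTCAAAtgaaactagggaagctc

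RefSeq windows from 250 bases before to 50 bases after the start were found for 39 of the 47 members (47 windows), with none for Aurkb, Ccna2, Ccnd1, Ccnd2, Ccne2, Gins1, Gins2 and Mcm4. E2F letters (TTTCCCGC, TTTGGCGC, TTTCGCGC or TTTGCCGC, on either strand) were in 13 of 33 licensing and S phase windows (39.4%), against 2.26% of all 32851 windows and 3.76% of the windows of genes tested. Of the 9 mitotic windows, 1 held them, that of Cdk1, and of the 5 windows of regulators 0 did. CHR letters (TTTGAA or TTCGAA, on either strand) were in 6 of the 9 mitotic windows (66.7%), those of Bub1, Ccnb2, Cdk1, Mki67, Plk1 and Top2a, and in 6 of the 33 licensing and S phase windows (18.2%). All windows held them in 19.2% of cases and those of genes tested in 14.0%. CCAAT, which is written within neither of those letters, was in 19 of 33 licensing and S phase windows and 7 of 9 mitotic windows, against 37.4% of all windows. A match of letters describes the sequence and is not a measured binding site.

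**Figure D1:**
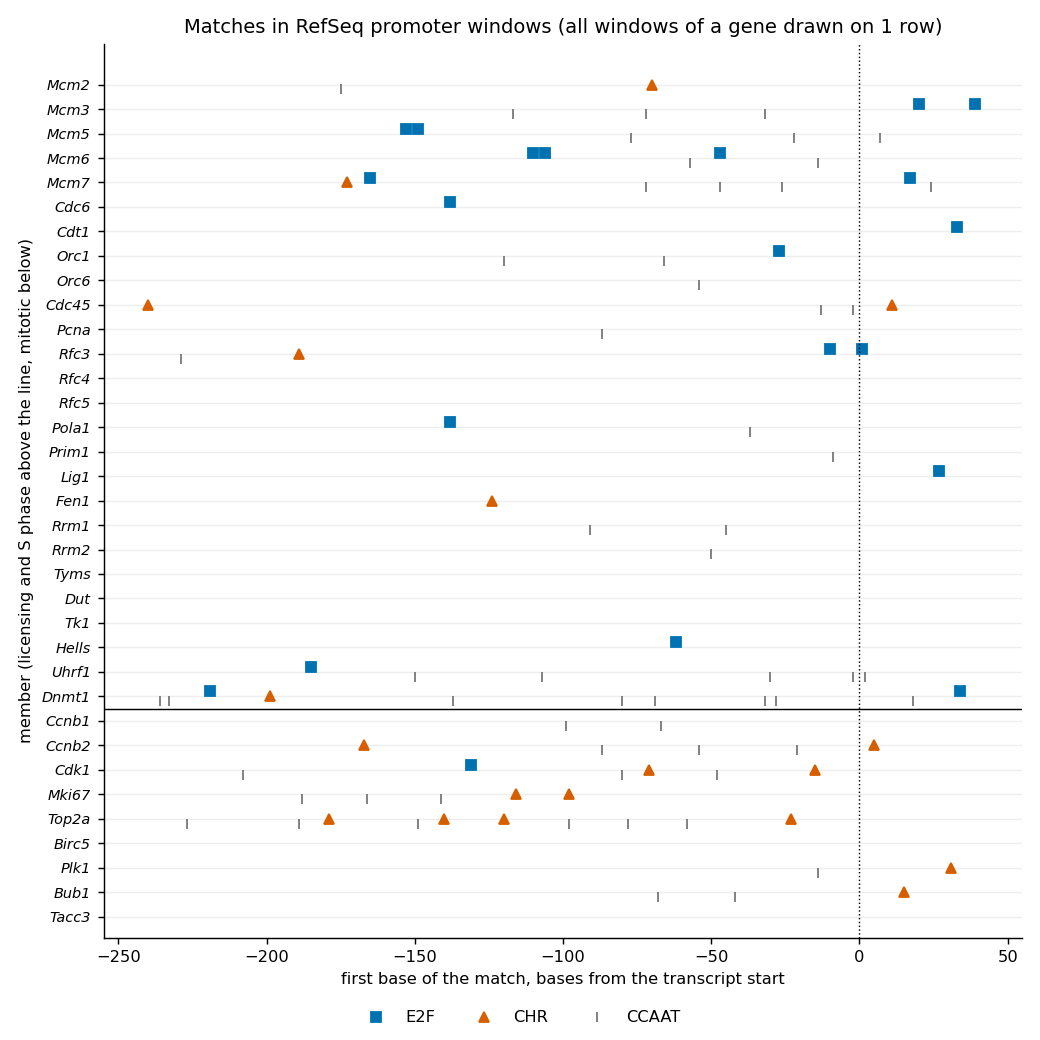
Positions of E2F (squares), CHR (triangles) and CCAAT (ticks) letters in the promoter windows of the licensing and S phase members (above the line) and mitotic members (below it); the x axis gives bases from the transcript start. Above the line 13 of 33 windows hold squares, below it only that of Cdk1 does, and 6 of the 9 windows below the line hold triangles.

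The values are log2 expression levels as the authors deposited them, with depth unknown. They are compared between libraries and not between genes, since gene length is not taken into account. Hepatocyte markers (6 genes such as albumin) summed to between 19.96 and 20.96 in the 12 libraries, with none at 0. Of the 6, Serpina1c and Cps1 were called lower in HFHS than in CNT, with differences of -1.07 and -0.84 (limma adjusted p of 0.00932 and 0.0189). All 12637 genes that reached the level above were tested together with limma, and a gene was called where its Benjamini-Hochberg adjusted p over all of them was under 0.05. Within each group the values below follow the order of replicates 1, 2 and 3, and each difference is given with its standard error (SE). The SE rests on 1 spread per gene shared by all 4 groups. Over all genes tested, the root mean variance was 0.233 in HFHS, 0.177 in CNT, 0.126 in curcumin and 0.148 in calcitriol livers. For genes that were uneven in HFHS, the SE and p of HFHS comparisons may therefore be too small.

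A part of the replication and cell cycle genes was higher in HFHS livers than in CNT livers, with the MCM2-7 helicase foremost. In HFHS against CNT, 17 of the 43 tested members were called higher and 0 lower, while 6.55% of all genes tested were called higher. The 3 HFHS libraries lay above the 3 CNT libraries without overlap for 23 of 43 members, against 12.7% of all genes tested. The median difference was 0.41 (log2) over the members and -0.01 over all genes. By class, 12 of 27 licensing and S phase members, 5 of 9 mitotic members and 0 of 7 regulators were called. The lowest adjusted p among the regulators was 0.0578 in limma. An unadjusted p under 0.05 was held by 3 of the 7, and by 4033 of all 12637 genes tested.

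The MCM2-7 helicase, the ring that unwinds DNA ahead of the fork, held the 5 largest rises among the licensing and S phase genes. Mcm5 (chr8:75109569-75128439, GRCm38) was at 6.99, 6.76 and 6.46 in HFHS, 5.61, 5.78 and 5.69 in CNT, 6.02, 5.80 and 6.02 in curcumin and 5.88, 5.53 and 5.65 in calcitriol livers. Every HFHS library was above the 9 others, and the HFHS mean was 2.06-fold the CNT mean (1.04 ± 0.13 SE, adjusted p = 0.00325). Mcm6 (chr1:128331590-128359664) was at 8.02, 7.40 and 7.56 in HFHS, 6.68, 6.74 and 6.39 in CNT, 6.83, 6.75 and 6.83 in curcumin and 6.69, 6.49 and 6.55 in calcitriol livers. The lowest HFHS library was again above all 9 others, and the difference from CNT was 1.06 ± 0.14 (adjusted p = 0.00366). Mcm2 (chr6:88883474-88898780) was at 7.47, 6.82 and 6.71 in HFHS, 5.99, 6.07 and 6.09 in CNT, 6.35, 6.32 and 6.29 in curcumin and 6.20, 5.89 and 6.31 in calcitriol livers. HFHS replicate 1 stood highest, the other two HFHS libraries were still above the rest, and HFHS minus CNT was 0.95 ± 0.17 (adjusted p = 0.0118).

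Mcm3 was at 7.42, 7.06 and 6.91 in HFHS, 6.46, 6.36 and 6.30 in CNT, 6.64, 6.62 and 6.54 in curcumin and 6.47, 6.34 and 6.51 in calcitriol livers, a difference from CNT of 0.76 (adjusted p = 0.00838). For Mcm4 the libraries read 7.53, 7.22 and 7.07 in HFHS, 6.37, 6.63 and 6.49 in CNT, 6.83, 6.66 and 6.65 in curcumin and 6.78, 6.45 and 6.62 in calcitriol livers, a difference from CNT of 0.78 (adjusted p = 0.00932). In both genes the 3 HFHS libraries were above the 9 others. The sixth subunit departed from this: Mcm7 was at 7.59, 7.07 and 7.12 in HFHS and 6.96, 6.92 and 6.999 in CNT, so that replicate 1 alone stood well above CNT. Its difference was 0.30 ± 0.11 and did not pass (adjusted p = 0.101), although the groups did not overlap.

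**Figure D2:**
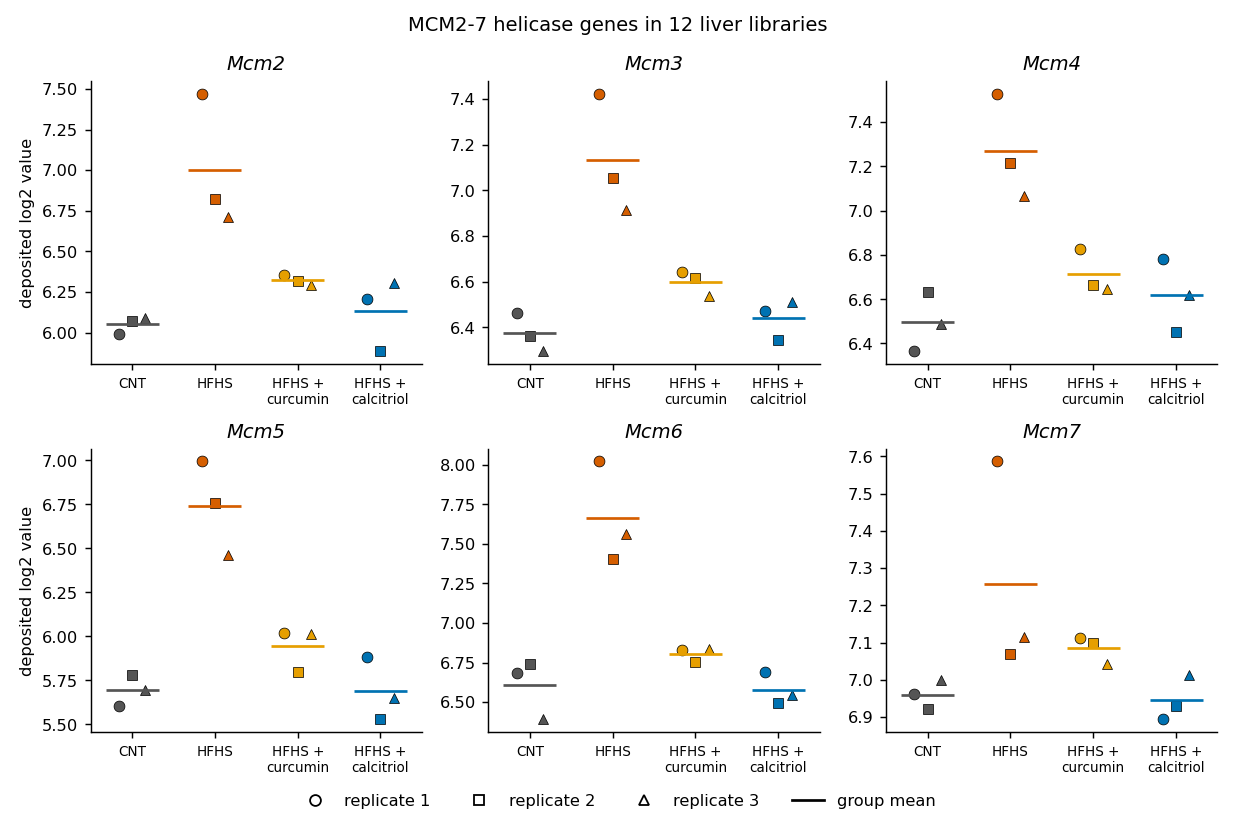
Deposited log2 values of the 6 MCM2-7 genes in each of the 12 libraries, by group; points are libraries, their shape gives the replicate number, bars are group means, and each panel has its own y axis that does not start at 0. The 3 HFHS points of Mcm2 to Mcm6 lie above all other points, whereas for Mcm7 HFHS replicate 2 (7.07) lies among the curcumin libraries.

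Among the genes that load and fire origins, Gins2, a subunit of the GINS complex, passed. Gins2 was at 4.32, 4.09 and 4.10 in HFHS, 3.54, 3.74 and 3.59 in CNT, 3.82, 3.68 and 3.74 in curcumin and 3.63, 3.60 and 3.76 in calcitriol livers, with no HFHS library inside the range of the others and a difference from CNT of 0.55 (adjusted p = 0.0102). Cdc45, the helicase activator, differed by 0.30 without overlap and did not pass (adjusted p = 0.0596). The other tested genes of this role, Cdt1, Orc6 and Gins1, differed by 0.07 to 0.20, with adjusted p of at least 0.133. Cdc6, the loader below the test level, was at 3.15, 2.88 and 3.23 in HFHS and between 2.63 and 2.80 in the 9 other libraries. Orc1, the largest subunit of the origin recognition complex, was at 0.82, 0.66 and 0.66 in HFHS and between 0.55 and 0.63 elsewhere. When every gene not at 0 was fitted, Cdc6 was called higher than CNT (0.39, adjusted p = 0.0199) and Orc1 was not (0.14, adjusted p = 0.0633).

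At the fork the enzymes that join and trim Okazaki fragments rose. Lig1, DNA ligase 1, was at 6.96, 6.75 and 6.74 in HFHS, 6.46, 6.46 and 6.16 in CNT, 6.41, 6.10 and 6.22 in curcumin and 6.20, 6.22 and 6.07 in calcitriol livers, a difference from CNT of 0.45 ± 0.11 (adjusted p = 0.0268). Fen1, the flap endonuclease, was at 6.12, 5.93 and 6.04 in HFHS, 5.48, 5.48 and 5.74 in CNT, 5.68, 5.62 and 5.72 in curcumin and 5.68, 5.52 and 5.64 in calcitriol livers, a difference of 0.46 (adjusted p = 0.0162). Both had all HFHS libraries above the 9 others. Pcna, the sliding clamp that is widely used as a proliferation marker, was different: it was at 7.77, 7.75 and 7.81 in HFHS, 7.70, 7.70 and 7.76 in CNT, 7.76, 7.74 and 7.57 in curcumin and 7.49, 7.60 and 7.62 in calcitriol livers. HFHS and CNT overlapped for Pcna and differed by 0.06 ± 0.07 (adjusted p = 0.594). The clamp loader subunits Rfc3, Rfc4 and Rfc5, the polymerase alpha subunit Pola1 and the primase Prim1 differed by 0.01 to 0.26 and did not pass.

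Of the enzymes of nucleotide supply, Rrm1, the large subunit of ribonucleotide reductase, rose. Rrm1 was at 8.10, 8.02 and 7.95 in HFHS, 7.47, 7.64 and 7.65 in CNT, 7.70, 7.63 and 7.62 in curcumin and 7.69, 7.57 and 7.51 in calcitriol livers, a difference from CNT of 0.44 ± 0.08 (adjusted p = 0.0113). Its small partner Rrm2 did not follow: it was at 6.70, 6.45 and 6.47 in HFHS and 6.98, 6.65 and 6.19 in CNT, with a difference of -0.06 (adjusted p = 0.817). Tk1, the thymidine kinase of S phase, ran the other way, at 7.65, 8.35 and 7.75 in HFHS, 8.78, 8.68 and 8.37 in CNT, 8.58, 8.38 and 8.53 in curcumin and 8.61, 8.27 and 7.85 in calcitriol livers. Every HFHS library of Tk1 was below every CNT library, and the difference of -0.69 ± 0.21 fell just short of the threshold (adjusted p = 0.0522). Tyms and Dut, which make and protect the thymidylate pool, differed by 0.02 and 0.13 and did not pass.

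All 3 members that act on chromatin and DNA methylation at the fork were called higher. Hells, a chromatin remodeler of the SNF2 family, was at 5.04, 4.83 and 4.77 in HFHS, 4.63, 4.47 and 4.25 in CNT, 4.12, 4.25 and 4.24 in curcumin and 4.21, 4.25 and 4.36 in calcitriol livers, a difference from CNT of 0.43 (adjusted p = 0.0301). Uhrf1, which brings the methyltransferase to newly copied DNA, was at 4.52, 4.04 and 4.37 in HFHS, 3.66, 3.77 and 3.64 in CNT, 3.88, 3.73 and 3.77 in curcumin and 3.74, 3.59 and 3.79 in calcitriol livers, a difference of 0.62 (adjusted p = 0.0124). In Hells and Uhrf1 no HFHS library overlapped the 9 others. Dnmt1, the maintenance methyltransferase itself, was at 8.05, 7.78 and 7.92 in HFHS, 7.61, 7.51 and 7.63 in CNT, 7.82, 7.64 and 7.66 in curcumin and 7.80, 7.63 and 7.83 in calcitriol livers. The HFHS libraries of Dnmt1 were above CNT by 0.33 (adjusted p = 0.0334) and overlapped both treated groups.

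Set beside the promoter letters, 7 of the 11 tested licensing and S phase members with E2F letters in a window were called higher in HFHS than in CNT (Dnmt1, Hells, Lig1, Mcm3, Mcm5, Mcm6 and Uhrf1), with a median difference of 0.43. Of the 13 tested members of this class with a window but no such letters, 3 were called (Fen1, Mcm2 and Rrm1), with a median of 0.13. Of all genes tested, 6.55% were called higher. The share called among all tested genes with E2F letters was not counted. The split is a count over few genes and was not tested.

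Of the 9 mitotic members 5 were called higher in HFHS, and their HFHS libraries were uneven. Mki67, the gene of the Ki-67 proliferation antigen (chr7:135689784-135716361), was at 7.45, 6.03 and 7.03 in HFHS, 5.67, 5.86 and 5.38 in CNT, 6.08, 5.59 and 5.65 in curcumin and 5.96, 5.62 and 5.73 in calcitriol livers. Replicates 1 and 3 of HFHS were far above every other library while replicate 2 was inside the range of the curcumin group. The HFHS mean was 2.3-fold the CNT mean (1.20 ± 0.29, limma adjusted p = 0.0294). The SD of Mki67 was 0.73 in HFHS and 0.24 in CNT, while its SE shares the spread of all 4 groups. Top2a, topoisomerase II alpha (chr11:98992943-99024189), was at 6.86, 5.72 and 6.44 in HFHS, 5.23, 5.49 and 4.93 in CNT, 5.69, 5.38 and 5.39 in curcumin and 5.76, 5.05 and 5.39 in calcitriol livers. It showed the same 2 high libraries and a difference from CNT of 1.12 ± 0.26 (adjusted p = 0.026). Ccna2, cyclin A2 (chr3:36564865-36572150), was at 5.90, 4.57 and 5.36 in HFHS, 4.51, 4.47 and 4.30 in CNT, 4.79, 4.49 and 4.53 in curcumin and 4.51, 4.46 and 4.57 in calcitriol livers. HFHS replicate 2 of Ccna2 lay above CNT but below the highest curcumin library, and the difference of 0.85 ± 0.25 passed (adjusted p = 0.0466).

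Aurkb, the kinase of the chromosomal passenger complex, was at 4.05, 3.60 and 3.91 in HFHS, 3.43, 3.54 and 3.24 in CNT, 3.62, 3.59 and 3.54 in curcumin and 3.66, 3.30 and 3.48 in calcitriol livers, a difference from CNT of 0.45 (adjusted p = 0.0401). Tacc3, a spindle protein, was at 5.22, 4.63 and 4.89 in HFHS, 4.41, 4.44 and 4.55 in CNT, 4.66, 4.57 and 4.53 in curcumin and 4.43, 4.40 and 4.51 in calcitriol livers, a difference of 0.45 (adjusted p = 0.0394). Cdk1, the mitotic kinase, fell just short, at 5.88, 4.84 and 5.46 in HFHS, 4.85, 4.70 and 4.57 in CNT, 5.03, 4.71 and 4.76 in curcumin and 4.81, 4.46 and 4.60 in calcitriol livers. Its difference was 0.68 ± 0.21 (adjusted p = 0.0543), and HFHS replicate 2 lay inside the CNT range. The cyclin Ccnb2, the survivin gene Birc5 and the kinase Plk1 differed by 0.54, 0.41 and 0.39 and did not pass. Below the test level, Bub1 was at 2.73, 2.36 and 2.72 in HFHS and at most 2.37 elsewhere, and Ccnb1 at 2.47, 2.07 and 2.15 in HFHS and at most 2.05 elsewhere. When every gene not at 0 was fitted, Bub1 was called higher than CNT (0.42, adjusted p = 0.018) and Ccnb1 was not (0.23, adjusted p = 0.0938).

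Among the regulators, the D cyclin gene Ccnd1 (chr7:144929931-144939925) was at 12.11, 11.20 and 11.24 in HFHS, 10.92, 11.33 and 11.08 in CNT, 10.38, 10.40 and 10.36 in curcumin and 10.03, 9.998 and 9.29 in calcitriol livers. HFHS and CNT overlapped and differed by 0.41 ± 0.24 (adjusted p = 0.273), while all 6 treated libraries were below all 6 others. Cdkn1a, the gene of the CDK inhibitor p21, was at 8.03, 6.40 and 6.36 in HFHS, 5.72, 5.66 and 5.44 in CNT, 6.00, 7.13 and 6.96 in curcumin and 5.80, 5.66 and 5.98 in calcitriol livers. HFHS replicate 1 was far above the other two, which lay below curcumin replicates 2 and 3. The difference from CNT of 1.33 ± 0.41 was the largest of any member and did not pass (adjusted p = 0.0578). E2f1, an activating E2F, was at 6.15, 6.00 and 5.63 in HFHS, 5.59, 5.54 and 5.51 in CNT, 5.50, 5.58 and 5.43 in curcumin and 5.39, 5.39 and 5.78 in calcitriol livers, a difference of 0.38 (adjusted p = 0.0786). Ccnd2, Ccne1, Ccne2 and Cdk4 differed from CNT by 0.52, -0.31, -0.04 and 0.08, with adjusted p of at least 0.0971.

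**Figure D3:**
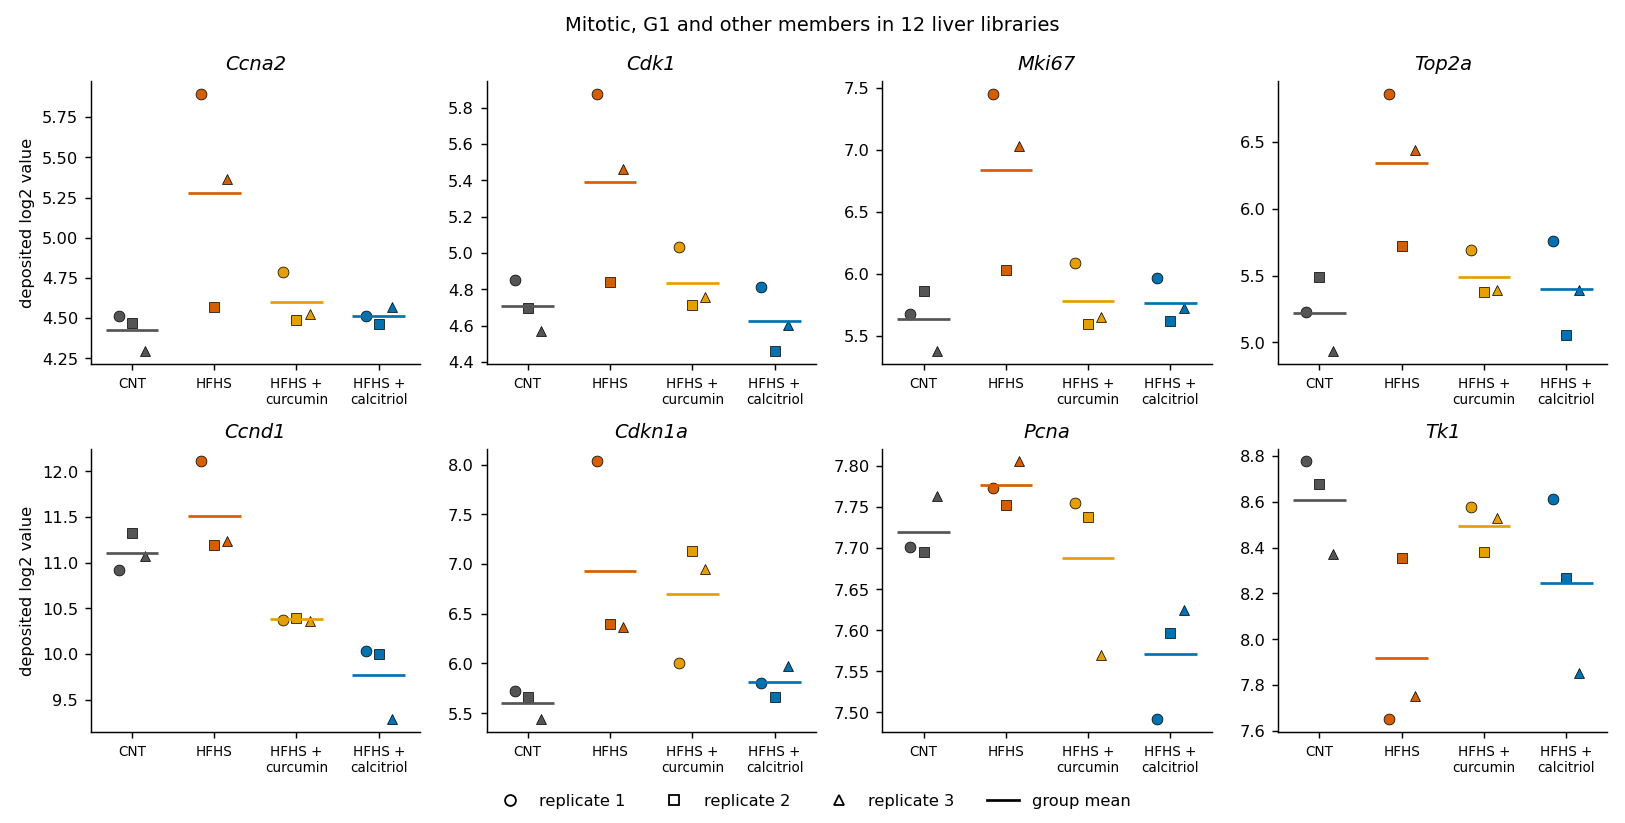
Deposited log2 values of 4 mitotic members (upper row) and of Ccnd1, Cdkn1a, Pcna and Tk1 (lower row) in each of the 12 libraries; points are libraries, their shape gives the replicate number, bars are group means, and each panel has its own y axis that does not start at 0. In the upper row HFHS replicates 1 and 3 stand apart from HFHS replicate 2, and in the Ccnd1 panel all treated libraries, at 10.40 or below, lie under every HFHS and CNT library.

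The number of calls between HFHS and CNT rested on single libraries. Without HFHS replicate 1 or HFHS replicate 3, 8 members were called, the same 8 in both cases: Mcm2 to Mcm6, Gins2, Rrm1 and Uhrf1. Of all 12637 genes 216 and 269 were called in these fits. Without CNT replicate 2, 8 members and 135 genes were called, and without CNT replicate 1 or CNT replicate 3, 11 members and 538 or 1361 genes. Those 8 genes passed whichever of the 6 libraries was left out, whereas no mitotic member but Tacc3 (without CNT replicate 3) passed unless the library left out was HFHS replicate 2, where 25 members and 3717 genes were called. Fitted on these 6 libraries alone, limma called 0 members and 13 of all genes. An unadjusted p under 0.05 was held by 24 members and by 2823 of all genes.

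Livers given curcumin liposomes had lower levels of a few S phase genes than untreated HFHS livers. In this comparison 3 of 43 members were called lower (0.15% of all genes tested were) and 0 higher. Mcm6 fell by 0.86 (0.14 SE, adjusted p = 0.0384), which put it at 0.552 times the HFHS level. Mcm5 fell by 0.79 (0.13 SE, adjusted p = 0.0384) and Hells fell by 0.68 (0.11 SE, adjusted p = 0.0384). Curcumin libraries lay below all HFHS libraries without overlap for 17 of 43 members, against 11.6% of all genes tested, and the median difference was -0.36 over the members.

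Several other members had differences of like size that did not pass. Ccnd1 differed by -1.14 ± 0.24 without overlap (adjusted p = 0.0541), and Mki67 by -1.06 ± 0.29 with overlap (adjusted p = 0.0831). Mcm2, Mcm3 and Mcm4 differed by -0.68, -0.53 and -0.56, with adjusted p of 0.0724, 0.0533 and 0.0589. Of the 9 mitotic members 0 were called by limma, and 7 had an unadjusted p under 0.05, as did 3123 of all 12637 genes. Same-numbered libraries of these 2 groups deviated together, although the titles do not say what the numbers mark. With the number as a block over all 12 libraries, 9 members were called lower, beside 132 of all 12637 genes. These were Mcm3 to Mcm6, Lig1, Rrm1, Hells, Uhrf1 and Ccnd1, the last with an adjusted p of 0.0474. Without HFHS replicate 2 there were 27 calls (26 lower and Tk1 higher), beside 3207 of all 12637 genes. Leaving out any other library of this comparison gave 0 members and at most 2 of all genes in limma. An unadjusted p under 0.05 was then held by 18 to 24 members and by 1793 to 2728 genes.

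Livers given calcitriol liposomes had lower levels of Mcm2 to Mcm6, of 6 other S phase genes and of Ccnd1 than untreated HFHS livers. In all 12 of 43 members were called lower and 0 higher, while 1.23% of all genes tested were called lower. By class these were 11 of 27 licensing and S phase members, 1 of 7 regulators and 0 of 9 mitotic members. All 9 mitotic members had an unadjusted p under 0.05, as did 2693 of all 12637 genes tested. The lowest adjusted p of these 9 members in limma was 0.0712 (Tacc3). Calcitriol libraries lay below all HFHS libraries for 29 of 43 members, against 11.8% of all genes tested, and the median difference was -0.41.

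Ccnd1 had the largest difference of any member: it fell by 1.74 (0.24 SE, adjusted p = 0.0163), to 0.299 times its HFHS level. Mcm6 fell by 1.09 (0.14 SE, adjusted p = 0.00868) and Mcm5 fell by 1.05 (0.13 SE, adjusted p = 0.00864). The rest of the helicase followed, with -0.87 for Mcm2, -0.69 for Mcm3 and -0.65 for Mcm4 (adjusted p of 0.0314, 0.021 and 0.0311), except Mcm7 at -0.31 (adjusted p = 0.148). At the fork Lig1 fell by 0.65 and Fen1 fell by 0.42 (adjusted p of 0.0217 and 0.0447). Gins2 fell by 0.50, Rrm1 fell by 0.44, Hells fell by 0.61 and Uhrf1 fell by 0.60, with adjusted p between 0.0246 and 0.029. Mki67 differed by -1.07 ± 0.29 and Cdk1 by -0.77 ± 0.21, and neither passed (adjusted p of 0.0789 and 0.0781).

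Single libraries again set the count. Without calcitriol replicate 2 the count was 0, although 28 members and 1924 of all genes had an unadjusted p under 0.05. With calcitriol replicates 1 or 3 left out the count was 7 and 3. Without HFHS replicate 1 it was 4 (Mcm3, Mcm5, Mcm6 and Ccnd1), without HFHS replicate 3 it was 9, and without HFHS replicate 2 it was 28, with all 9 mitotic members among them. Of all 12637 genes, 24, 58 and 2194 were called in these 3 fits, and 118, 4 and 14 without calcitriol replicates 1, 2 and 3. On the 6 libraries alone the member count was 0, with 30 members and 2310 of all genes at an unadjusted p under 0.05.

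**Figure D4:**
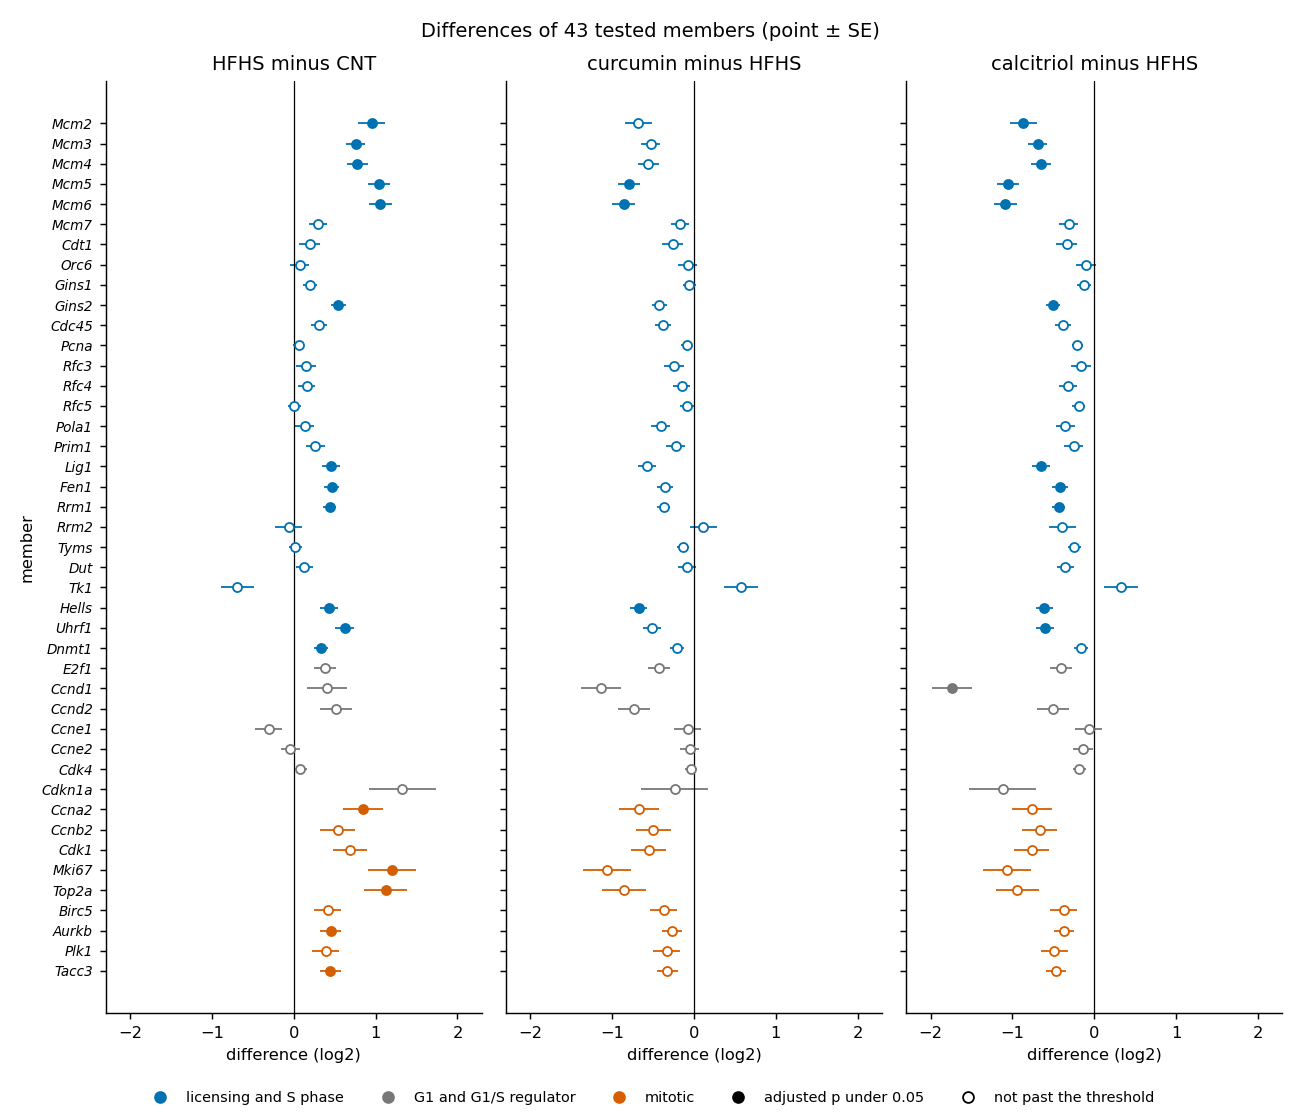
Differences (log2) of the 43 tested members in 3 comparisons, as points with SE; color gives the class, and filled points passed the threshold. The left panel has 17 filled points, all to the right of 0; the middle has 3 and the right has 12, all to the left of 0. The 3 panels share the HFHS libraries, so they are not independent of each other.

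Few members were called between the treated groups or between a treated group and CNT. In curcumin against calcitriol limma called 0 of 43 members and 0% of all genes tested, and 3 members had an unadjusted p under 0.05 (1873 genes over the whole table). Rrm2 had the largest of these 3 differences relative to its error, at 6.45, 6.74 and 6.77 in curcumin and 6.19, 6.07 and 6.18 in calcitriol livers (0.51 ± 0.16, adjusted p = 0.25), without overlap. Fitted on these 2 groups alone, Rrm2 was the only member called, among 214 of all 12637 genes. Ccnd1 was lower with calcitriol than with curcumin in every library, by 0.60 ± 0.24 for curcumin minus calcitriol, and did not pass (adjusted p = 0.306). In curcumin against CNT limma called 0 members, while 3.51% of all genes were called in either direction. An unadjusted p under 0.05 was held by 5 of 43 members, and by 2345 of all 12637 genes. All 6 curcumin to CNT differences of Mcm2 to Mcm7 were above 0, at 0.12 to 0.27, and none passed. For each of these 6 genes all curcumin libraries lay above all CNT libraries. That held for 8 of the 43 members and 1631 of all 12637 genes, and 4 members and 1610 of all genes lay below without overlap. Fitted on these 2 groups alone, Ccnd1 was the only member called, among 644 of all 12637 genes. With all groups in the fit Ccnd1 differed by -0.73 ± 0.24 (adjusted p = 0.133).

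In calcitriol against CNT 1 of 43 members was called, Ccnd1, while 2.27% of all genes tested were called lower. Ccnd1 fell by 1.34 (0.24 SE, adjusted p = 0.0192), so that calcitriol livers were below CNT livers as well as below HFHS livers. The call was lost without CNT replicate 2 (adjusted p = 0.0778, the highest over the alternatives) and without calcitriol replicate 2 or 3 (adjusted p = 0.0518 and 0.0626). The 6 helicase genes differed from CNT by -0.03 to 0.12 and did not pass.

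The licensing and S phase members and the mitotic members divided the HFHS libraries differently. HFHS replicate 2 was above all 9 libraries of the other groups for 14 of 27 licensing and S phase members, 5 of the 6 MCM2-7 genes among them, and for 0 of 9 mitotic members. Over all genes tested it was above them for 8.5%. Replicates 1 and 3 were both above the 9 others for 18 of 27 licensing and S phase members and for 9 of 9 mitotic members, against 14.7% of all genes. All 3 HFHS libraries were above the others for 12 of 27 and 0 of 9, against 2.51% of all genes.

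A score that averages each library's deviation from the gene means shows the same division. Over the 27 licensing and S phase members the scores of HFHS were 0.42, 0.20 and 0.17 (log2), and every other library was between -0.21 and -0.02. Over the 9 mitotic members they were 0.93, -0.03 and 0.52, and the others were between -0.36 and 0.08. HFHS replicate 2 therefore stood above the other groups on the first score and among them on the second. Licensing minus mitotic was -0.51, 0.24 and -0.35 in HFHS (mean -0.21 ± 0.39 SD, n = 3), against 0.13 ± 0.10 in CNT, 0.04 ± 0.12 in curcumin and 0.04 ± 0.08 in calcitriol livers. HFHS replicate 2 lay inside the CNT range of 0.07 to 0.25, and the difference between the classes was not tested. The median SD within HFHS was 0.143 for licensing and S phase members and 0.523 for mitotic members, and in each other group the mitotic median was at most 0.170.

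With HFHS replicate 2 as the only HFHS library, and its spread taken to be that of the other groups, 4 members were still called higher than CNT, among 50 of all 12637 genes. These were Mcm5 (1.06, adjusted p = 0.0106), Mcm3 (0.68, adjusted p = 0.0282), Mcm6 (0.80, adjusted p = 0.0318) and Mcm2 (0.77, adjusted p = 0.0481). Of the mitotic members 0 passed in that limma fit, where Mki67 differed by 0.39 (adjusted p = 0.55) and Ccna2 by 0.14 (adjusted p = 0.761).

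**Figure D5:**
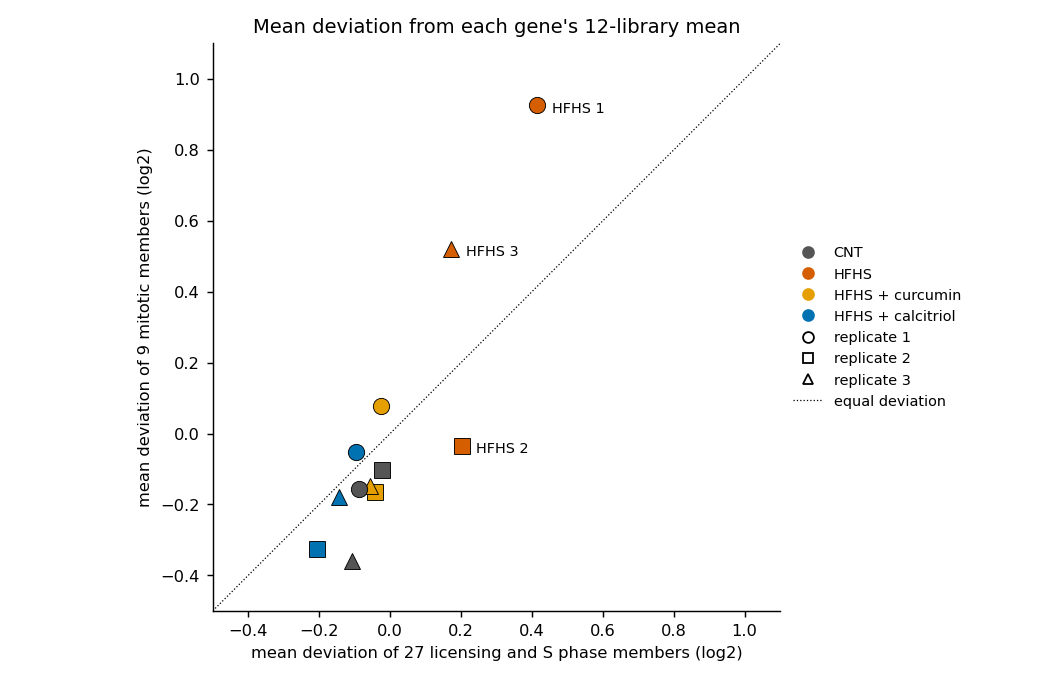
Mean deviation (log2) from each gene's 12-library mean over the 27 tested licensing and S phase members (x axis) and the 9 tested mitotic members (y axis), with 1 point per library; the dotted line marks equal deviation. HFHS replicates 1 and 3 lie above the line at 0.93 and 0.52 on the y axis, and HFHS replicate 2 lies below it, at 0.20 on the x axis and -0.03 on the y axis.

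Some marker lists of other liver cells, like the mitotic members, were higher in HFHS replicates 1 and 3 than in replicate 2, and others were not. The summed level of 6 stellate cell and fibroblast markers was 13.48, 12.29 and 13.31 in the HFHS libraries and between 11.97 and 12.50 in the others, so that replicates 1 and 3 stood out here too. Of these 6 markers 4 were called higher in HFHS than in CNT, among them the collagen gene Col3a1. The summed level of 7 Kupffer cell and macrophage markers was 13.13, 12.62 and 12.52 in HFHS and between 12.11 and 13.03 elsewhere. This sum did not follow that order. The 3 of 7 called higher than CNT, Cd68, Trem2 and Gpnmb, were each higher in HFHS replicates 1 and 3 than in replicate 2. In HFHS Gpnmb was at 8.62, 4.89 and 7.15 and Cd68 at 8.87, 8.37 and 8.49. The more abundant Clec4f (10.86, 11.19 and 10.63) and Csf1r (10.69, 10.48 and 10.28) did not follow that order. The 5 cholangiocyte markers summed to 11.78, 10.14 and 10.77 in HFHS and to at most 10.53 elsewhere, and 7 T and NK cell markers to 6.79, 6.36 and 6.71, against 6.25 to 6.49. Neutrophil markers (6.84, 6.28 and 7.10 in HFHS) and B and plasma cell markers (9.58, 9.06 and 10.31) had the same order. Other libraries reached 7.61 and 10.23 for these lists. Endothelial markers, at 11.07, 11.08 and 11.65 in HFHS and 10.76 to 11.55 elsewhere, did not follow it. Neither did erythroid markers (12.15, 12.76 and 13.04 in HFHS), and hepatocyte markers ran the other way (20.45, 20.74 and 20.42). HFHS replicate 3 also had adipocyte markers at 9.26, against at most 5.20 in any other library. No marker of these lists was at 0 in all libraries, and the part of these cells in the member values was not tested.

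Other genes of the same pathways were counted from 9 lists of 180 genes that are not members, of which 151 were tested. In HFHS against CNT 36 were called higher, where 6.55% of all genes were, and 5 lower, where 677 of all 12637 genes were. The median difference was 0.18. In curcumin against HFHS limma called 0, with a median of -0.17. Of the 151, 61 had an unadjusted p under 0.05, as did 3123 of all 12637 genes. In calcitriol against HFHS 14 were called lower, where 1.23% of all genes were, and 0 higher, with a median of -0.19.

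Fork and polymerase genes held 6 of the 24 tested that rose in HFHS over CNT and 1 that fell. Chaf1a, the large subunit of the histone chaperone CAF-1, was at 5.24, 4.92 and 4.94 in HFHS and 4.47, 4.43 and 4.29 in CNT (0.64, adjusted p = 0.0093). Pole, the leading strand polymerase, rose by 0.44 (adjusted p = 0.0224), and Dna2, a flap nuclease, fell by 0.34 (adjusted p = 0.0229). Of 16 further licensing and firing genes 3 rose, Mtbp, Wdhd1 and Mcm8, by 0.38 to 0.41. Of 15 nucleotide supply genes 2 rose, Samhd1 and Dck, and 2 fell: Umps and Paics, enzymes of pyrimidine and purine synthesis, fell by 0.34 and 0.43.

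In the list of E2F and pocket protein genes 1 of 16 was called higher, a share near that of all genes, and 2 lower. The former, Rbl1, which encodes the pocket protein p107, rose by 0.88 (adjusted p = 0.00414), and the latter were Tfdp2 and Lin52. Rbl1 was at 6.35, 5.95 and 5.99 in HFHS and 5.27, 5.25 and 5.14 in CNT. E2f8, a repressing E2F, ran differently: it was at 7.31, 7.44 and 7.30 in HFHS, 7.55, 7.98 and 8.01 in curcumin and 7.59, 7.85 and 7.87 in calcitriol livers, above 7.21, 6.91 and 6.63 in CNT. Its differences from CNT were 0.93 with curcumin (adjusted p = 0.00803) and 0.86 with calcitriol (adjusted p = 0.0157). Of 13 further cyclin and CDK genes 3 rose in HFHS over CNT, Cdk6, Cdc25b and Pkmyt1. Of 4 CDK inhibitor genes limma called 0 in every comparison. In HFHS against CNT 1 had an unadjusted p under 0.05, as did 4033 of all 12637 genes.

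Of 31 further mitotic genes 13 rose in HFHS over CNT and 0 fell, with a median difference of 0.50. Smc2, a condensin subunit, rose by 0.60 (adjusted p = 0.0148), and Aurka, the spindle pole kinase, by 0.61 (adjusted p = 0.0158). Replicates 1 and 3 of HFHS were both above the 9 other libraries for 25 of 31 genes (14.7% of all genes), and replicate 2 was above them for 7 of 31 (8.5% of all genes). For replicate 2 this count was 5 of 16 further licensing and firing genes and 9 of 24 fork and polymerase genes. It was 3 of 15 nucleotide supply genes. Outside the members, replicate 2 thus set the mitotic list less apart from the other lists. Of 14 genes of S phase repair 5 rose, among them the checkpoint kinase gene Chek1 (0.52, adjusted p = 0.015), and of 18 p53 targets 3 rose, Phlda3, Btg2 and Pmaip1. With calcitriol the genes called lower than HFHS included Chaf1a, Pole and Rpa1 at the fork, the checkpoint mediator Topbp1, Cks1b, Cdk6 and Pkmyt1 among the cyclin and CDK genes, and Mad2l1, Aurka and Smc2 among the mitotic ones.

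Among the 10 genes outside the members whose values followed the mean of Mcm2 to Mcm7 most closely over the 12 libraries were Aurka, Cdca8, Smc2, Dtl, Chaf1a, Fignl1, Ckap2l, Srxn1 and Lrrc14b. The Pearson correlations ran from 0.973 (Aurka) to 0.939 (Lrrc14b), as a description over 12 libraries that share the group differences. Aurka, from the list of further mitotic genes, was at 4.69, 4.33 and 4.23 in HFHS and at most 4.06 elsewhere. All its HFHS libraries thus lay above all others, as for Mcm2 to Mcm6. Srxn1, which encodes the redox enzyme sulfiredoxin, was at 9.93, 9.27 and 9.39 in HFHS and 8.63, 8.83 and 8.96 in CNT.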

How the data were processed

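RNA sequencing of 12 whole-liver libraries, 3 in each of 4 groups, was deposited as 1 table per library of log2 values, which run from -3.63 to 20.7. The submitters' processing notes name STAR 2.4.0d, DESeq2 1.8.1 and the build GRCm38, but the step that gave the authors' log2 values is not given in the sources used here. Library totals are therefore unknown, and differences of low genes may be shrunken. Precision is given by the spread between libraries, with a median SE of 0.100. No 2 libraries held identical values.

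Of 45792 genes listed, 23411 were at 0 in all libraries. The 12637 genes with a value of at least 3.32 in at least 3 libraries were fitted with limma 3.58.1 (R 4.3.3) on 4 group means, with a trend and robust variance. The 6 comparisons were two-sided, with Benjamini-Hochberg adjustment over all genes in each and a threshold of 0.05. The fit was tested on simulated data in which each gene had the same spread in every group. That could not address the wider spread of HFHS. Symbols and gene coordinates are from the GENCODE M21 annotation of GRCm38, and promoter windows from RefSeq.

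The members and gene lists were chosen with earlier results of these data known. Every member called in any comparison is given in each library, with Pcna, E2f1, Cdkn1a and Cdk1. One gene outside the members is not reported here. The titles do not say what the replicate numbers mark. In 2 of the 6 comparisons every same-numbered pair deviated together: curcumin against HFHS (correlations of 0.160 to 0.321) and calcitriol against CNT (0.205 to 0.372). The replicate block was fitted over all 12 libraries. Alternatives were other filters, quantile normalization, no trend, library weights, a replicate block, fits on 2 groups, and leaving libraries out.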

Additional observations from a re-analysis of the deposited data

How the results depend on the processing

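The number of genes called moved with the processing, while the direction of the called members did not, except that Ccna2 in curcumin against HFHS turned to 0.0344 (adjusted p = 0.999) without HFHS replicates 1 and 3. With library weights 4790 genes were called in HFHS against CNT (1505 otherwise), 3420 in curcumin against HFHS (38), 2725 in calcitriol against HFHS (279), 577 in curcumin against calcitriol (0), 2660 in curcumin against CNT (443) and 3120 in calcitriol against CNT (511). Members called were then 26, 26, 32, 1, 3 and 6, in the same order. Fitted on 2 groups alone, 13 genes and 0 members were called in HFHS against CNT, 0 and 0 in curcumin against HFHS, and 0 and 0 in calcitriol against HFHS. Such fits gave 214 genes and 1 member in curcumin against calcitriol, and 644 and 1 in curcumin against CNT. In those 3 HFHS comparisons 24, 19 and 30 members had an unadjusted p under 0.05 in limma, beside 2823, 2467 and 2310 of all genes. Curcumin against HFHS gave 74 genes and 5 members with every gene not at 0 tested, 122 and 5 with a mean of at least 4, 168 and 5 after quantile normalization, and 242 and 9 with the replicate block. Calcitriol against HFHS gave 430 genes after quantile normalization, and calcitriol against CNT gave 328 with every gene tested. Without HFHS replicates 1 and 3, 68 genes and 4 members were called against CNT, 0 and 0 for curcumin (743 genes and 13 members at an unadjusted p under 0.05) and 4 and 1 for calcitriol.

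Leaving out 1 library gave 135 (without CNT replicate 2) to 3717 (without HFHS replicate 2) genes in HFHS against CNT and 8 to 25 members. It gave 0 to 3207 genes and 0 to 27 members in curcumin against HFHS, and 4 to 2194 genes and 0 to 28 members in calcitriol against HFHS. The ranges were 94 to 949 genes and 0 members in curcumin against CNT, 73 to 609 genes and 0 to 2 members in calcitriol against CNT, and 0 genes in curcumin against calcitriol. The cause of these shifts was not tested. Licensing minus mitotic, HFHS against CNT, was -0.34 and ran from -0.56 to -0.19.

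Of the block fits, that of curcumin against HFHS alone moved a count by over 1.5 times. Same-numbered libraries did not all deviate together in the other 4 comparisons. The correlations were 0.00346 to 0.185 for HFHS against CNT and -0.0386 to 0.120 for calcitriol against HFHS. They were -0.0939 to 0.218 for curcumin against calcitriol and -0.383 to -0.0225 for curcumin against CNT. With the replicate block, HFHS against CNT gave 20 members (19 higher and Tk1 lower) and 1862 of all genes. Calcitriol against HFHS gave 13 members and 280 of all genes. With 3 libraries a group and depth unknown, small differences of low genes such as Orc1 could not be resolved.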
